A study of Arabidopsis thaliana with 6 samples.

Results

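The UMAMIT genes ("Usually Multiple Acids Move In and out Transporters") of Arabidopsis were examined for histone H3 lysine 27 trimethylation (H3K27me3) in brm mutant and wild-type (wt) seedlings. Members were taken from the TAIR10.1 annotation, as the protein-coding genes with a symbol made of UMAMIT and a number or with a nodulin MtN21-like or EamA-like transporter product. This rule found 53 of 27444 protein-coding nuclear genes. They comprise 45 UMAMIT genes, among them 2 with symbols ending in psi and UMAMIT18 under its older name SIAR1, and 8 genes matched by product alone. No read count entered that rule, but the family was chosen by the brm-against-wt value of 1 of its genes, UMAMIT13, so that value is given here as a description and carries no test. WAT1, a further gene of the family, is annotated under another product and fell outside the rule.

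Chromatin immunoprecipitation with an antibody against H3K27me3 was followed by sequencing (ChIP-seq) from whole 14-day-old seedlings in 2 libraries of brm and 2 of wt, with 1 input library (chromatin that was not immunoprecipitated) of brm and 1 of wt. The labels name the mutant only as brm; the study gives the allele as brm-1, a null from a T-DNA insertion, the wild type as the accession Col and the replicates as biological. BRM (BRAHMA) is the motor subunit of SWI/SNF remodellers, which slide or evict nucleosomes with the energy of ATP, and the study asked how its loss alters H3K27me3, the mark laid by Polycomb repressive complex 2. Since whole seedlings were used, a change in the share of cells that carry the mark and a change in its level per cell cannot be told apart.

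UMAMIT proteins are membrane proteins with EamA domains, and several characterized members let amino acids leave the cell, which supplies vascular tissue, seeds and other organs that import them. H3K27me3 covers whole genes that are kept silent in most cells of a tissue, and in plants it is typically found over genes used in a single organ or stage. Several UMAMIT genes act mainly in siliques and seeds, which 14-day seedlings do not have.

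The deposited files list each mapped read, and they held 9593473 and 8408612 reads for brm H3K27me3, 8563827 and 9051298 for wt H3K27me3, 5676681 for brm input and 6342835 for wt input. Of these, 28.3% and 38.2% of the brm H3K27me3 reads, 27.9% and 23.4% of the wt H3K27me3 reads, 80.03% of the brm input reads and 68.9% of the wt input reads had a position and strand of their own. Levels are reads over the annotated gene per 1000000 reads of the library (RPM), and a ratio to input is the RPM of an H3K27me3 library over that of the input of the same genotype. AGAMOUS (AG), a floral homeotic gene silenced by Polycomb in seedlings, had mean ratios of 9.68 in brm and 10.03 in wt. ACT7, an actin gene, had 0.0558 in brm and 0.132 in wt. BRM itself had 18.9 and 20.5 RPM in brm H3K27me3 and 14.5 and 15.4 RPM in wt H3K27me3, and since reads are genomic this does not check the mutation.

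The family ranged from strongly marked to unmarked genes in both genotypes, with weakly marked and partly covered genes between. H3K27me3 regions were called per library and kept where both replicates had them, and a gene was called marked where at least 50% of its span lay in such regions. Marked genes numbered 24 of 45 UMAMIT genes (53.3%) in brm and 22 of 45 (48.9%) in wt, while 23.2% of all protein-coding genes were marked in brm and 21.9% in wt. The regions reached over the entire span of 16 UMAMIT genes in brm and 12 in wt, and left 17 without a single base in brm and 18 in wt. Regions were called on reads with each position and strand counted once. The brm libraries held 2719420 and 3213347 of these and the wt libraries 2385590 and 2115598. Whether this unequal depth accounts for the larger region counts in brm was not tested. Among the 8 genes matched by product alone, 1 was marked in brm and 1 in wt, AT1G53660 in both. A second measure counted genes at least 2-fold over input with an adjusted p under 0.05 (edgeR's quasi-likelihood test, Benjamini-Hochberg), which held for 24 of 45 UMAMIT genes in brm and 23 in wt, against 19.3% of protein-coding genes in brm and 19.6% in wt. All 22 UMAMIT genes marked in wt and 23 of the 24 marked in brm were among them, the exception being UMAMIT13 in brm.

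**Figure D1:**
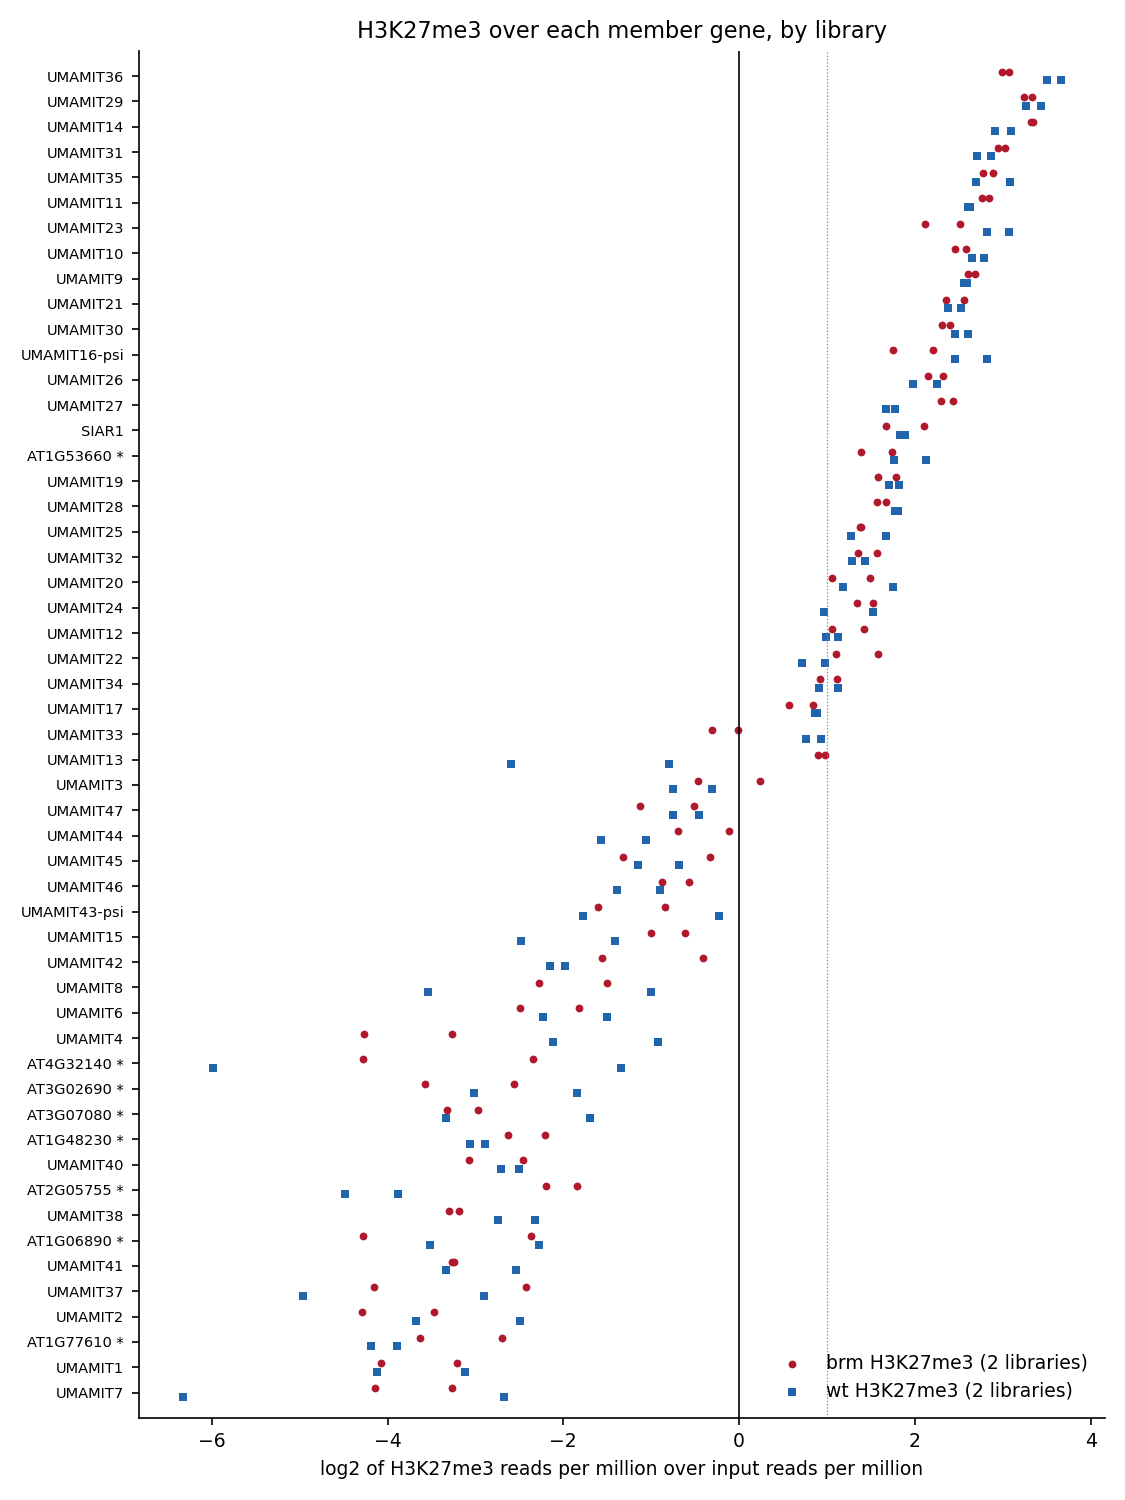
Ratio to input of each of the 53 members, as log2 of H3K27me3 RPM over input RPM, with each of the 2 brm libraries (red circles) and 2 wt libraries (blue squares) drawn as a point; members run from the highest to the lowest mean ratio, a star marks the genes matched by product alone, the solid line is equality with input and the dotted line 2-fold. UMAMIT36 heads the order, 27 members lie above input in both brm libraries and 27 in both wt libraries, and UMAMIT13 has its brm points right of the line and its wt points left of it.

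The 3 highest mean ratios to input belonged to genes with roles in defence and in seeds. UMAMIT36, known as RTP1 for resistance to Phytophthora parasitica, had 241 and 228 RPM in brm and 279 and 250 RPM in wt, with 28.7 RPM in brm input and 22.1 RPM in wt input. Its mean ratio was 8.17 in brm and 11.99 in wt. The second, UMAMIT29, an exporter of amino acids in developing seeds, had 173 and 184 RPM in brm and 212 and 187 RPM in wt, 9.76 times input in brm and 10.2 times in wt as means. UMAMIT14, which acts in phloem unloading and in seeds, had 162 and 160 RPM in brm and 185 and 163 RPM in wt, 10.07 times input in brm and 8.05 times in wt as means. In all 3 genes the brm libraries lay below the wt libraries in RPM, with log2 fold changes of -0.17 ± 0.14 (SE) for UMAMIT36, -0.16 ± 0.15 for UMAMIT29 and -0.11 ± 0.16 for UMAMIT14, none of which passed the test applied to the whole family. For UMAMIT14 the ratio ran the other way, since its brm input level, 16.0 RPM, was lower than its wt input level, 21.6 RPM.

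The next 5 in the order, UMAMIT31, UMAMIT35, UMAMIT11, UMAMIT23 and UMAMIT10, had mean ratios of 5.02 to 7.93 in brm and 6.15 to 7.74 in wt. UMAMIT11, another seed exporter, had 171 and 162 RPM in brm and 150 and 148 RPM in wt. SIAR1 (UMAMIT18), which loads amino acids in vascular tissue and siliques, had 86.0 and 116 RPM in brm and 116 and 111 RPM in wt, and its groups overlapped. UMAMIT28, expressed in seeds, had 52.9 and 56.6 RPM in brm and 71.1 and 69.8 RPM in wt. The seed transporter UMAMIT24 had 50.6 and 57.2 RPM in brm and 49.4 and 72.4 RPM in wt. UMAMIT25, a seed transporter as well, was 2.61 times input in brm and 2.80 times in wt as means and passed the input test in both, but its region covered 38.7% of the gene in both, so that it was not counted as marked. The 8 seed, vascular or defence genes named here (UMAMIT11, 14, 24, 25, 28, 29, 36 and SIAR1) all passed the 2-fold input test in both genotypes. Of all 45 UMAMIT genes, 24 passed it in brm and 23 in wt, against 19.3% and 19.6% of protein-coding genes. WAT1, listed for its known role but outside the rule, was 2.09 times input in brm and 2.45 times in wt as means, with 50% cover in both. These genes were picked for their known roles with earlier results of these data known.

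At the other end, 17 UMAMIT genes had no region in either genotype. The lowest, UMAMIT7, had 2.40 and 1.31 RPM in brm and 0.35 and 4.42 RPM in wt, with 23.1 RPM in brm input and 28.2 RPM in wt input. UMAMIT1 and UMAMIT2, which are 79.3% identical to each other in coding sequence, had mean ratios of 0.0837 and 0.0706 in brm and 0.0863 and 0.128 in wt. The 7 unmarked genes matched by product alone lay between 0.114 and 0.249 times input in brm and between 0.0562 and 0.205 in wt. Levels this low rest on few reads, 3 reads in the 1 wt library of UMAMIT7 and 15 to 65 reads per brm library over those 7 genes, and the standard errors of log2 fold changes among the unmarked members reached 1.01.

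As a mean along the gene, the 22 UMAMIT genes marked in both genotypes lay above input in all 10 parts. Averaged over them, part 2 of 10 equal parts of the gene had 52.1 and 56.7 RPM per kb in brm and 54.8 and 64.8 in wt, and part 10 had 22.5 and 22.6 in brm and 25.1 and 21.0 in wt, while the inputs stayed between 6.51 and 10.6 RPM per kb. In the kilobase upstream, the 4 libraries had 32.7 and 33.2 RPM per kb in brm and 32.9 and 28.4 in wt. The order of the libraries changed from part to part, and brm and wt followed the same course. Single genes differ from these means: regions covered 54.0% of UMAMIT19 and 54.5% of UMAMIT34 in both genotypes. The 4 UMAMIT genes with partial regions (UMAMIT3, 17, 25 and 33) held the mark at their 5′ end, with 38.1 and 38.8 RPM per kb in brm and 25.2 and 35.4 in wt over part 1 and 2.05 and 1.94 in brm and 1.18 and 1.26 in wt over part 10.

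**Figure D2:**
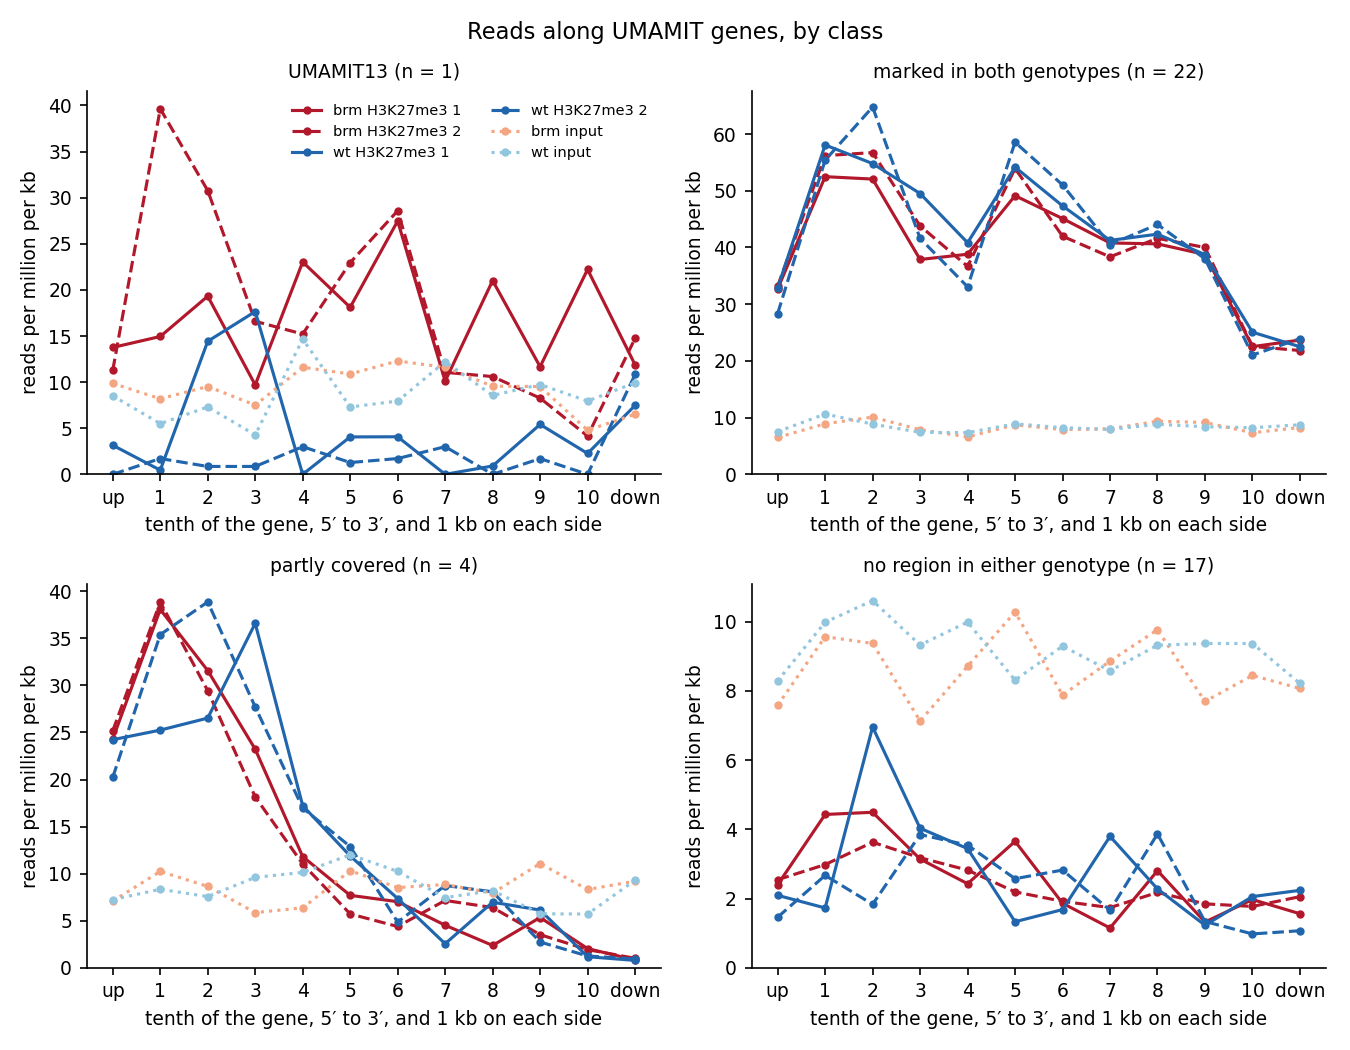
Reads per 1000000 reads and kb in the upstream kilobase, in 10 equal parts of the gene from 5′ to 3′ and in the downstream kilobase, for UMAMIT13, for UMAMIT genes marked in both genotypes (n = 22), partly covered (n = 4) and without a region in either genotype (n = 17); red lines are the 2 brm libraries, blue lines the 2 wt libraries and dotted lines the inputs, and each panel has its own vertical scale. The class means of brm and wt follow each other, while in UMAMIT13 the brm lines stay above both inputs over most of the gene and the wt lines below them within the gene outside parts 2 and 3 of wt replicate 1.

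Members lying close together on a chromosome mostly shared a state, in 6 groups. Other genes lie within some groups, such as AT4G01435, marked in neither genotype, between UMAMIT29 and UMAMIT31. UMAMIT29, UMAMIT31 and UMAMIT30 on chromosome 4 were all marked, and UMAMIT31 and UMAMIT30 lay in 1 region of 21000 bp in brm and 21600 bp in wt. UMAMIT27 and UMAMIT26 on chromosome 1 shared a region of 10000 bp in each genotype. In contrast, the 6 members of an array on chromosome 3 (UMAMIT41, 43-psi, 46, 47, 45 and 44) were all unmarked, with mean ratios of 0.104 to 0.772 in brm and 0.136 to 0.661 in wt, and so were UMAMIT42, UMAMIT37 and UMAMIT40 on chromosome 5. In the group of UMAMIT20 and UMAMIT17 on chromosome 4, the first was marked in both genotypes and the second, at 20.9% cover, in neither. The remaining group, UMAMIT13 and UMAMIT12 on chromosome 2, was marked in both genes in brm and in UMAMIT12 alone in wt.

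Close relatives mostly shared a state. Of the 19 UMAMIT pairs with at least 75% identity between coding sequences, 18 shared their state in brm and 17 in wt, while 49.1% of all 990 UMAMIT pairs did in brm and 48.9% in wt. The 19 pairs involve 19 genes, so they are not independent of each other. Several also lie close together on a chromosome: UMAMIT27 and UMAMIT26, UMAMIT13 and UMAMIT12, UMAMIT37 and UMAMIT40, and the pairs among UMAMIT44 to UMAMIT47. For these, likeness in sequence and closeness on the chromosome cannot be told apart. The closest pair, UMAMIT27 and UMAMIT26 at 94.0%, was marked in both genotypes, and the next, UMAMIT46 and UMAMIT47 at 89.7%, in neither. SIAR1 and UMAMIT17 (77.1%) differed in both genotypes. UMAMIT13 and UMAMIT12 (83.7%) differed in wt only. Such likeness could let reads of 1 copy be lost, since only uniquely mapped reads were kept: 82.6% of the 37-base words of UMAMIT27 and 84.2% of those of UMAMIT26 occur once in the genome, and at least 96.8% of those of every other UMAMIT gene.

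UMAMIT13 (AT2G37450) lies on the minus strand at chr2:15722480-15725062 in TAIR10.1 and has 5 exons, and UMAMIT12 (AT2G37460) follows 1275 bp before its start on the same strand, at chr2:15726338-15729170. The 300 bases around each start, from 250 before to 50 after, are shown because the difference between the genotypes runs across the UMAMIT13 window, and the UMAMIT12 window is given for comparison; they are read from the TAIR10.1 genome on the gene's strand, and capitals mark GAGAGA or its reverse complement, the repeat bound by GA-repeat factors.
UMAMIT13 start (chr2:15725013-15725312, minus strand): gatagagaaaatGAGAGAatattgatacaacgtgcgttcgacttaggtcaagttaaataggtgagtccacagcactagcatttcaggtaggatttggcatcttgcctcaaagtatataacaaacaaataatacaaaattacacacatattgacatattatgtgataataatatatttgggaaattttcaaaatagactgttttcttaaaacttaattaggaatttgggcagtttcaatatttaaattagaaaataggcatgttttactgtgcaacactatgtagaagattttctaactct
UMAMIT12 start (chr2:15729121-15729420, minus strand): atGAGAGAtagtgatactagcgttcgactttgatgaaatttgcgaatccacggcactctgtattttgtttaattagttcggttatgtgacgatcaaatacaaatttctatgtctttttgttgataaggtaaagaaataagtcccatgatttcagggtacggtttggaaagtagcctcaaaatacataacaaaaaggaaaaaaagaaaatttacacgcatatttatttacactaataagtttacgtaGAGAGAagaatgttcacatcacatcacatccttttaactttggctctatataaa
The UMAMIT13 window holds GAGAGA once and the UMAMIT12 window at 2 places. Searched on both strands, with overlapping matches counted, GAGAGA was present in 9 of 45 UMAMIT windows (20%), in 4 of the 22 marked in wt and in 5 of the 23 not marked in wt, against 29.2% of all protein-coding genes and 28.5% of those marked in wt. The telo-box AAACCCTA was in 0 of 45, against 6.22% of all protein-coding genes. The UMAMIT13 and UMAMIT12 windows were 69.2% identical over 211 aligned bases, against a median of 60.9% over the 990 UMAMIT pairs.

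UMAMIT13 was covered by H3K27me3 regions in brm and not in wt, though its level in brm did not pass the 2-fold input test. It had 440 and 408 reads in brm and 109 and 33 reads in wt, which is 45.9 and 48.5 RPM in brm and 12.7 and 3.65 RPM in wt, with 24.7 RPM in brm input and 22.1 RPM in wt input. Its ratios to input were 1.86 and 1.97 in brm and 0.577 and 0.165 in wt. Both brm libraries thus lay above both wt libraries and above input, and both wt libraries lay below input. The fitted log2 ratio to input in brm was 0.94 ± 0.55 (SE; edgeR adjusted p = 0.146). The side of input holds for scaling by library totals; with scaling by trimmed means the log2 ratio was 2.99 in brm and 0.49 in wt. The fitted log2 fold change was 2.53 ± 0.41 (SE), the largest of the family and at rank 153 of all 30906 genes tested. It was 3.69 without wt replicate 1 and 1.89 without wt replicate 2, as these 2 libraries differed from each other by more than the brm libraries did. Counting each position and strand once left 134 and 155 reads in brm and 27 and 12 reads in wt, and 119 in brm input and 99 in wt input. In level, UMAMIT13 in brm remained below every UMAMIT gene marked in both genotypes except UMAMIT34 and UMAMIT20 by mean RPM.

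The gain filled a gap between marked genes. In wt a region over AT2G37440, the gene downstream of UMAMIT13, ended 879 bp short of UMAMIT13, and the next began 2138 bp beyond its start, inside UMAMIT12, which left 5600 bp (chr2:15721601-15727200) without a region. In brm that gap was 1000 bp (chr2:15725601-15726600), and 1 region ran from AT2G37440 over the whole of UMAMIT13 to 538 bp before its start. In each brm library taken alone the regions covered 100% of UMAMIT13, and in each wt library 0%. The 1275 bp between the UMAMIT genes had 15.9 and 13.1 RPM in brm and 3.15 and 0 RPM in wt, with 11.98 RPM in brm input and 11.04 RPM in wt input; 0 reads in wt replicate 2 allows a level of up to 0.331 RPM (3 reads, counting error only). By contrast, AT2G37440 had 148 and 145 RPM in brm and 145 and 151 RPM in wt, and its groups overlapped.

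**Figure D3:**
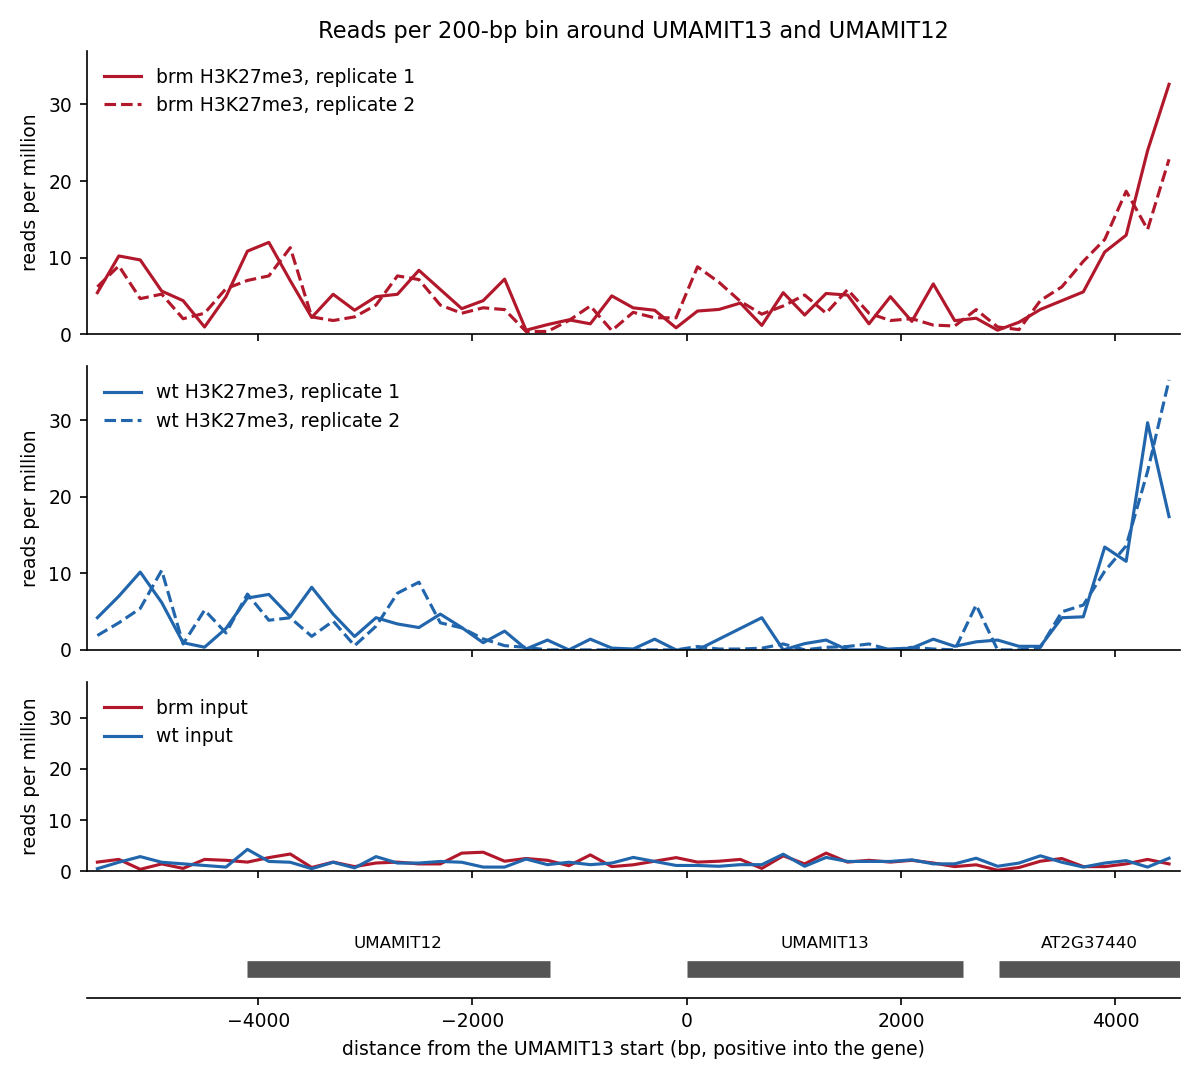
Reads per 1000000 reads in 200-bp bins against the distance from the UMAMIT13 start, positive into the gene, for the 2 brm H3K27me3 libraries (red), the 2 wt H3K27me3 libraries (blue) and the inputs of brm (red) and wt (blue), with gene spans as bars below. Across UMAMIT13 and the 1275 bp before it the brm libraries run above the wt libraries in most bins, and over AT2G37440 both genotypes rise together.

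Within UMAMIT13, the difference was spread over exons and introns. Exon 1 had 6.25 and 14.7 RPM in brm and 0.82 and 0.55 RPM in wt, with 3.52 RPM in brm input and 2.05 RPM in wt input. Exon 5, the last, had 8.76 and 3.21 RPM in brm and 1.99 and 0.44 RPM in wt. Intron 1 had 14.0 and 17.5 RPM in brm and 8.64 and 1.10 RPM in wt, so that most of the reads of wt replicate 1 in this gene lay there. Parts 1 to 5 of 10 held 37.8% to 67.6% of the gain over the 4 pairings of a brm with a wt library, so the gain had no fixed side of the gene.

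UMAMIT12 was marked in both genotypes and had 77.1 and 60.3 RPM in brm and 52.3 and 47.5 RPM in wt, with 28.9 RPM in brm input and 24.0 RPM in wt input. The brm libraries lay above the wt libraries, by a log2 fold change of 0.46 ± 0.21 (SE; edgeR adjusted p = 0.613). The cover of the gene was 90.7% in brm and 69.5% in wt.

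UMAMIT22 was the other gene counted as marked in brm only. It had 59.2 and 82.5 RPM in brm and 46.7 and 56.4 RPM in wt, with 27.5 RPM in brm input and 28.5 RPM in wt input, and a log2 fold change of 0.46 ± 0.22 (SE; edgeR adjusted p = 0.640). Its cover was 100% in brm and 21.5% in wt, but wt replicate 2 alone covered 75.5% of it and wt replicate 1 alone 21.5%, so the count depends on the requirement that both replicates have a region. Genes marked in brm only made up 2.14% of all protein-coding genes, and genes marked in wt only 0.823%. These shares come from regions too, for which the brm libraries had more distinct reads. The family had 2 of 53 and 0 of 53. UMAMIT13, which chose the family, is 1 of these 2, so only UMAMIT22 remains among the other 52 members.

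Apart from UMAMIT13, which chose the family and is described without a test, no member passed the test between the genotypes. In the fit over 30906 genes (edgeR's quasi-likelihood test, Benjamini-Hochberg), 24 genes (0.0777%) were higher and 30 (0.0971%) lower in brm, and UMAMIT13, which chose the family, is among those higher. Of the other 52 members 0 passed, with adjusted p from 0.395 to 0.997, and DESeq2 also called 0 of them. At an unadjusted p under 0.05, 4 of the 52 were higher, against 3.21% of all genes tested, and 2 lower, against 4.53%; these are UMAMIT12 and UMAMIT22, the unmarked UMAMIT42 and AT2G05755, then UMAMIT33 and the unmarked UMAMIT4, the last 2 being lower, and UMAMIT42, AT2G05755 and UMAMIT4 are named after their values were seen. Both brm libraries lay above both wt libraries in 12 of the 53 members, UMAMIT13 among them, against 17.4% of all genes tested. They lay below both wt libraries in 13, against 20.2% of all genes tested. The median log2 fold change was -0.15 over the 53 members and -0.05 over all genes tested; over the 23 members marked in both genotypes it was -0.15, against -0.08 over all 5768 such protein-coding genes.

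**Figure D4:**
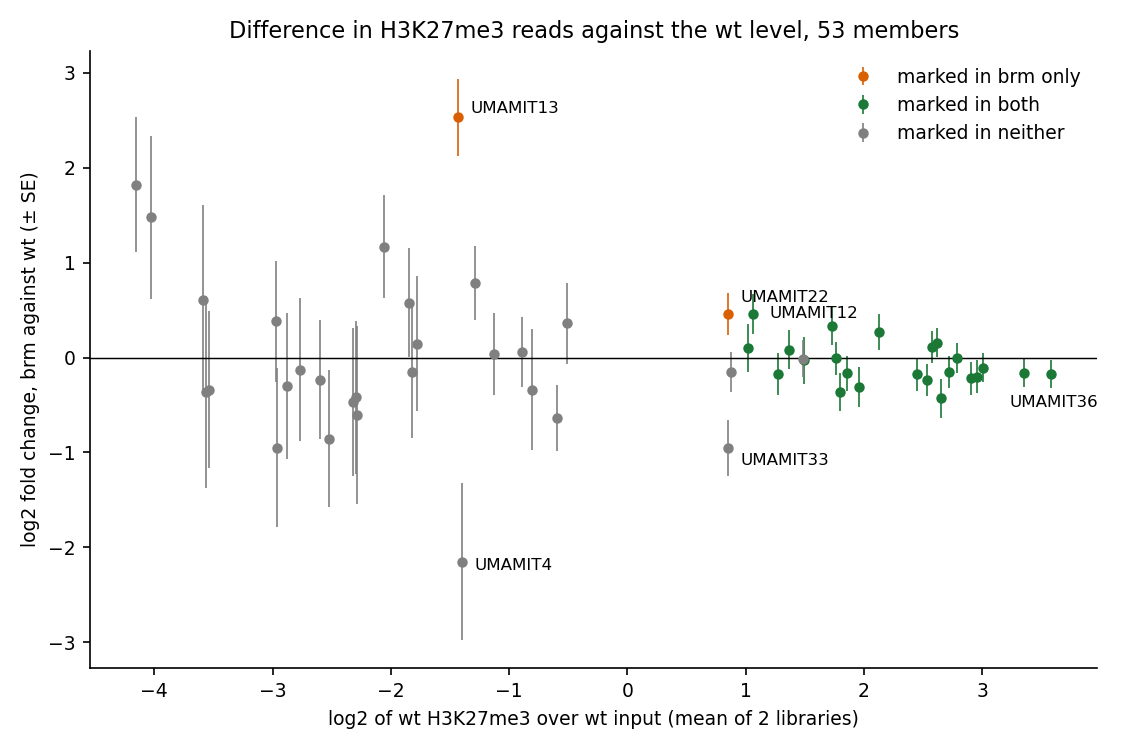
Log2 fold change of brm against wt (± SE, edgeR) for each of the 53 members, against log2 of the mean ratio of wt H3K27me3 to wt input; orange points are marked in brm only, green points in both genotypes and grey points in neither. UMAMIT13 stands at 2.53 and the members marked in both genotypes lie between -0.43 and 0.46.

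The 23 members marked in both genotypes, a choice that leaves out UMAMIT13 and UMAMIT22, differed less in level. Their log2 fold changes ran from -0.43 to 0.46 with standard errors of 0.14 to 0.26, and both brm libraries lay above both wt libraries in 5 of them and below in 8, against 14.5% and 27.2% of all protein-coding genes marked in both genotypes. The libraries overlapped in the remaining 10. The highest after UMAMIT12 were UMAMIT27, with 72.7 and 65.7 RPM in brm and 56.6 and 52.9 RPM in wt (0.34 ± 0.20, SE), and UMAMIT26, with 85.1 and 75.9 RPM in brm and 73.1 and 60.4 RPM in wt (0.27 ± 0.19, SE). The lowest were UMAMIT16-psi, with 54.4 and 74.8 RPM in brm and 76.0 and 97.8 RPM in wt (-0.43 ± 0.21, SE), and UMAMIT28 (-0.36 ± 0.20, SE). AT1G53660 (-0.31), UMAMIT30 (-0.24) and UMAMIT35 (-0.22) followed. None of these differences passed the test. Among the 28 members marked in neither genotype the standard errors reached 1.01, and log2 fold changes ran from -2.15 in UMAMIT4, with 8 and 14 reads in brm and 29 and 70 in wt, to 1.82 in AT2G05755.

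UMAMIT33 (AT4G28040, chr4:13940307-13942436) was lower in brm over its gene span, though not past the threshold with all reads, and its upstream kilobase lay the other way. It had 19.5 and 15.9 RPM in brm and 36.3 and 32.4 RPM in wt, with 19.7 RPM in brm input and 19.1 RPM in wt input. Both brm libraries lay below both wt libraries, at 0.988 and 0.808 times input in brm and 1.90 and 1.70 times in wt. The log2 fold change was -0.95 ± 0.30 (SE), with an edgeR adjusted p of 0.395. With each position and strand counted once, at 45 and 57 reads in brm and 92 and 64 reads in wt, it was -1.01 and the adjusted p was 0.0287, and this counting called 0.511% of all genes lower. With 500 bp added on each side the log2 fold change was -0.58. The kilobase upstream had 94 and 85 reads in brm and 26 and 37 in wt, with 51 in brm input and 54 in wt input. Its log2 fold change was 1.48 ± 0.54 (SE, edgeR adjusted p = 0.443). With each position and strand counted once, 20 and 24 reads in brm and 11 and 10 in wt remained upstream. The log2 fold change there was then smaller, at 0.66 ± 0.39 (SE, edgeR adjusted p = 0.347). The common regions covered 32.6% of the UMAMIT33 gene span in brm and 46.9% in wt, so the gene was marked in neither genotype. Its 3′ end overlaps TET7, a tetraspanin gene on the other strand, and reads there cannot be assigned to either.

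In the kilobase upstream of the start, 43 of the 53 members had enough reads to be tested, and 0 passed an adjusted p of 0.05 (edgeR), while 0.0124% of all upstream windows tested were higher in brm. At an unadjusted p under 0.05, 5 of the 42 tested members other than UMAMIT13 were higher, against 6.29% of all windows tested. Of these 42, 0 were lower, against 2.60%. With UMAMIT13 included, the log2 fold change was above 0 in 33 of the 43, against 57.7% of all windows. Its median was 0.19, against 0.12 over all windows. UMAMIT13 had 132 and 95 reads there in brm and 27 and 0 in wt, with 56 in brm input and 54 in wt input. UMAMIT10 had 88 and 76 reads in brm and 23 and 28 in wt, with 40 in brm input and 66 in wt input, a log2 fold change of 1.65 ± 0.57 (SE; adjusted p = 0.425). UMAMIT11 had 178 and 157 reads in brm and 114 and 91 in wt (0.67 ± 0.36, SE; adjusted p = 0.623). With each position and strand counted once, 32 members were tested and 3 were called higher there, while this counting called 4.32% of all windows higher. The 3 are UMAMIT13, which chose the family and counts as a description, UMAMIT11 and UMAMIT10. The calls rest on 29 and 31 reads in brm and 9 and 9 reads in wt for UMAMIT10 (edgeR adjusted p = 0.0301) and on 53 and 73 reads in brm and 21 and 17 reads in wt for UMAMIT11 (adjusted p = 0.00178). Over their gene spans UMAMIT10 had 94.8 and 103 RPM in brm and 105 and 115 RPM in wt, and UMAMIT11 lay higher in brm by a log2 fold change of only 0.16 ± 0.15 (SE).

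The marking of UMAMIT genes was set beside that of 32 other amino acid transporter and export genes, namely the amino acid permeases AAP1 to AAP8, LHT1, LHT2 and LHT7, the proline transporters, the cationic amino acid transporters, the GLUTAMINE DUMPER genes GDU1 to GDU7, ANT1 and BAT1. Of these, 13 (40.6%) were marked in brm and 10 (31.2%) in wt, against 23.2% and 21.9% of all protein-coding genes. LHT7 had 112 and 135 RPM in brm and 148 and 161 RPM in wt, and CAT7 had 127 and 135 RPM in brm and 104 and 167 RPM in wt. In RPM, which is not corrected for gene length, these levels were like those of upper UMAMIT genes. Their mean ratios to input, 4.61 in brm and 6.61 in wt for LHT7 and 4.80 and 4.27 for CAT7, were below those of the 3 highest UMAMIT genes. AAP6, LHT1 and GDU3 were counted as marked in brm only, and none in wt only. These counts come from regions, for which the brm libraries had more distinct reads, and read levels did not show a matching gain. In LHT1 both brm libraries lay below both wt libraries (log2 fold change -0.369 ± 0.226, SE). The libraries overlapped in AAP6 (-0.046 ± 0.235, SE) and GDU3 (0.144 ± 0.424, SE). AAP6 passed the 2-fold input test in both genotypes, and LHT1 and GDU3 in neither. The test between genotypes called 0 of the 32 (edgeR, lowest adjusted p = 0.686), 0 had an unadjusted p under 0.05 and DESeq2 called 0; their median log2 fold change was -0.08. The list was chosen by known function with earlier results of these data known.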

How the data were processed

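H3K27me3 ChIP and input DNA of seedlings were sequenced (Genome Analyser IIx), and the authors mapped reads to TAIR10 with Bowtie (0.12.7 in the submitters' processing notes), keeping perfect, unique matches. The deposited files list 1 mapped 37-bp read per line, without removal of duplicates, so lines were counted as read counts. The 5 nuclear chromosomes of the TAIR10.1 annotation hold every read position.

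Reads were moved 75 bp towards the fragment centre and counted per gene and per 1000 bp upstream. Counts were compared with edgeR 4.0.16 (quasi-likelihood, library totals, low-count filter, Benjamini-Hochberg over all genes). Regions were rebuilt after SICER (200-bp windows, gaps up to 600 bp, 1 read per position and strand, adjusted p 0.01 against input). Fits and regions were run on simulated data with planted changes, as a check of the code. Genes with few reads were left out of the simulated fits, so the check does not cover them. With 1 input per genotype, ratios to input carry no input error, and without a spike-in they are relative to the library total. Coding sequences were aligned globally.

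Named genes were the neighbours at UMAMIT13, the 8 highest ratios, the 5 largest changes in each direction among marked members, members marked in 1 genotype or passing any fit, and those of known role. The members and lists were chosen with earlier results of these data known. Alternatives are given in the closing section.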

Additional observations from a re-analysis of the deposited data

Results flagged for a closer look

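With scaling by library totals, in 2 members every brm library lay on one side of its input and every wt library on the other. UMAMIT13 lay above input in both brm libraries and below it in both wt libraries, with a log2 ratio to input that was 2.37 higher in brm than in wt. UMAMIT33 lay below input in both brm libraries and above it in both wt libraries, with a log2 ratio that was lower in brm (-1.002). With scaling by trimmed means all 4 mean log2 ratios were above 0, at 2.99 in brm and 0.49 in wt for UMAMIT13 and at 1.90 in brm and 2.77 in wt for UMAMIT33, so the sides of input do not hold there. The value of UMAMIT13 led to the choice of the family and is a description. For UMAMIT33, a fit that sets the ratio of brm against that of wt, with 1 input library each, gave an adjusted p of 0.99995 (edgeR).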

How the results depend on the processing

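The log2 fold change of UMAMIT13 ran from 1.89 to 3.69 over 16 alternatives; as its value led to the choice of the family, its calls in the counts given here are descriptions and no test. The count of members called higher was 1 as reported; it was 0 with input subtracted and 2 with 1 read per position and strand and without wt replicate 2 (UMAMIT44 added). The count of members called lower was 0 as reported and 1 with 1 read per position and strand (UMAMIT33); leaving out 1 library in turn with that counting, chosen after seeing the data, gave 0 to 2 (UMAMIT33 and AT1G53660 without wt replicate 2). Members whose ratio to input differed between genotypes were 0 as reported, 1 with 1 read per position and strand and 0 to 1 without each library (UMAMIT13 without wt replicate 1). Upstream windows called higher were 0 as reported, 3 with 1 read per position and strand and 0 to 1 without each library (UMAMIT13 without wt replicate 1). Members marked numbered 25 in brm (23 to 29 over the alternatives) and 23 in wt (20 to 28), and members over input 25 in brm (23 to 32) and 24 in wt (22 to 28). Scaling by trimmed means raised the median log2 ratio to input of all genes by 2.05 in brm and 1.92 in wt, and moved the brm-against-wt median by 0.04.

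With the replicate number as a replicate block, the count of members was 1 higher (UMAMIT13) and 0 lower, and 0 of the other members were called; over all genes 86 were higher and 94 lower, against 24 and 30 without it. Same-numbered libraries did not deviate together (r = 0.06 over 8339 marked genes, which are not independent), and the labels give only a number. Over all genes the counts also moved with leaving out 1 library, to between 8 and 269 higher and between 10 and 628 lower, with the highest counts without wt replicate 1.

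Depth limits the unmarked members, which had as few as 3 reads in a library, and the 4 H3K27me3 libraries held many repeated positions, so counting intervals from all reads would be too narrow. Genes that overlap others (11 members) share reads with them.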
